A study of Mus musculus with 84 samples.

Results

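The genes described are 34 genes of fatty acid oxidation and of the response to the nuclear receptor PPAR-alpha, taken by symbol from a table of gene counts with 49671 genes. All 34 were found, each as 1 gene. They are the receptor itself (Ppara), the carnitine shuttle (Cpt1a, Cpt1b, Cpt2, Slc25a20, Crat), the acyl-CoA dehydrogenases (Acadvl, Acadl, Acadm, Acads), and the later mitochondrial steps (Hadha, Hadhb, Hadh, Echs1, Eci1, Decr1, Acaa2). Next come the electron transfer flavoproteins (Etfa, Etfb, Etfdh), the peroxisomal enzymes (Acaa1a, Acaa1b, Ehhadh, Hsd17b4, Eci2), and the acyl-CoA thioesterases (Acot1, Acot2). Other genes known as PPAR-alpha targets complete the list (Pdk4, Fgf21, Ucp3, Angptl4, Cyp4a10, Cyp4a14, Vnn1). RNA was sequenced from liver, skeletal muscle, epididymal fat, heart, aorta, hypothalamus and hippocampus of 12 mice, which gave 84 libraries in 28 groups of 3. The groups were wild-type (WT) mice on a normal diet (WT ND), WT mice on a high-fat diet (WT HFD), ob/ob mice on the normal diet (ob/ob ND) and ob/ob mice on the high-fat diet (ob/ob HFD), 3 mice each. The labels give 20 weeks for each mouse, which could be its age or the length of the diet, and name no background strain. The ob/ob mouse carries a nonsense mutation in the leptin gene in all its cells, lacks working leptin, overeats and becomes obese. Gene counts do not show the mutation and so do not check the genotype labels.

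Fatty acids are activated to acyl-CoA, moved into the mitochondrion as acylcarnitines, and shortened there in repeated cycles of dehydrogenation, hydration, a further dehydrogenation and thiolysis, with electrons leaving through the electron transfer flavoproteins. Peroxisomes run a parallel chain on very long and branched fatty acids. PPAR-alpha, bound by fatty acids and paired with a retinoid X receptor, switches many of these genes on in liver during fasting. Brown fat, heart and oxidative muscle burn fatty acids for heat or work, and white fat mainly stores them.

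The sequence that PPAR-alpha is known to bind is a direct repeat of AGGTCA with 1 base between (DR1, AGGTCANAGGTCA). RefSeq promoters (GRCm38.p6, 250 bases before to 50 after the start site) were given for 25 of the 34 genes and were searched on both strands, allowing 2 mismatches in the 12 fixed bases. A match was found in 4 of the 25 (16%), beside 1190 of 27025 genes of the same table (4.40%). With 1 mismatch at most, 0 of the 25 had a match, beside 174 of the 27025 (0.64%). At so low a share, 0 in a set of 25 says little. AGGTCA alone, without mismatch, was found in 5 of the 25 (20%), beside 4900 of the 27025 (18.1%). A match describes the letters and does not show that the receptor binds there. The promoters of Ucp3 and Echs1 are shown because both genes were lower in ob/ob aorta on both diets and in ob/ob epididymal fat on the normal diet. Ehhadh, Eci1, Eci2, Etfb and Decr1 were also lower in ob/ob aorta on both diets and are not among the 4 with a match. A link between match and expression was not tested. The windows are chr7:100472741-100473040 (plus strand) for Ucp3 and chr7:140116372-140116671 (minus strand) for Echs1, and capitals mark the match.
Ucp3: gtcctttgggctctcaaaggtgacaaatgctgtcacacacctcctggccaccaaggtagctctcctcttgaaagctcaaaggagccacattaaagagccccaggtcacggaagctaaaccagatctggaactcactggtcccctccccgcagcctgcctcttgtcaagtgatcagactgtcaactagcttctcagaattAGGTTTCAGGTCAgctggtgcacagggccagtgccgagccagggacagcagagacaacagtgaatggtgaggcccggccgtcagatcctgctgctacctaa
Echs1: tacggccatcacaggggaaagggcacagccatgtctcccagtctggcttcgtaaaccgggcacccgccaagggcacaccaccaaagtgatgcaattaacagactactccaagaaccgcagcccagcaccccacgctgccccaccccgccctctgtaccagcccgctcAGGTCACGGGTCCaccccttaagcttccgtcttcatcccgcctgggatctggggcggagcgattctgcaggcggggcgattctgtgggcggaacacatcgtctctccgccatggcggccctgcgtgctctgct

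In Ucp3 the match began 51 bases before the start site and in Echs1 83 bases before it, both on the gene's own strand. The other matches were AGGTGAAAGGTCG in Slc25a20, from base 7 of the transcript, and TTACCTTTGCCCT in Etfa, on the opposite strand, from 77 bases before the start site.

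Levels were compared between genes and tissues as TPM (transcript level from the counts per base of exon, scaled to the same total in each library), in WT ND mice and as mean ± SD of 3 mice. Aorta had the highest mean for 19 of the 34 genes, liver for 12, and heart, skeletal muscle and epididymal fat for 1 each (Acot2, Ucp3 and Angptl4). The mice of the leading tissue overlapped those of the next for Cpt1b, Crat and Pdk4 (aorta) and for Acot2 (heart). Liver led for Ppara, Cpt1a, the 5 peroxisomal genes, Acot1, Fgf21, Cyp4a10, Cyp4a14 and Vnn1. Ppara was at 93.97 ± 12.8 TPM in liver, 41.2 ± 17.2 in aorta and 10.6 ± 0.485 in heart. Cpt1a, which makes the acylcarnitines that enter the mitochondrion, was at 266 ± 21.9 TPM in liver and 98.9 ± 6.80 in epididymal fat, with the other tissues at a mean of 25.3 TPM or less. Fgf21, which encodes a hormone released by the liver, was at 26.4 ± 10.3 TPM there. Its mean was 2.37 ± 1.61 TPM in epididymal fat and under 1 TPM in the other tissues. Cyp4a14, a fatty acid omega-hydroxylase, was at 2127 ± 205 TPM in liver and 14.3 ± 17.6 in epididymal fat.

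Of the 18 mitochondrial genes, 17 had their highest mean in aorta (all but Cpt1a). Acadl, the long-chain acyl-CoA dehydrogenase, was at 2369 ± 426 TPM in aorta, 881 ± 74.7 in heart and 284 ± 20.3 in liver. Acaa2, the mitochondrial thiolase, was at 2889.7 ± 288 TPM in aorta, 1672 ± 54.9 in liver and 1113 ± 112 in heart. Both genes had their lowest means in the brain regions, at 55.4 ± 20.6 TPM of Acaa2 in hippocampus and 54.4 ± 7.05 in hypothalamus, where the mice overlapped. Cpt1b, the muscle form of carnitine palmitoyltransferase, was at 6.54 ± 1.53 TPM in aorta, 4.81 ± 0.209 in heart and 4.11 ± 1.12 in skeletal muscle, where the mice overlapped, and under 1 TPM elsewhere. Reads were counted without strand, and of its annotated exon bases 81.4% are shared with Chkb, so its level is uncertain. The same share is 58.2% for Etfb and 42.9% for Acadvl. Of the 50-base windows of Acaa1b 30.5% also occur in other genes, and of Acaa1a 12.9%. Ucp3, an uncoupling protein of the mitochondrial membrane, was at 177 ± 13.6 TPM in skeletal muscle, 71.04 ± 19.1 in aorta, 55.4 ± 9.98 in heart and 46.5 ± 2.06 in epididymal fat, and at 0 counts in the liver of all 3 WT ND mice. Angptl4, a secreted inhibitor of lipoprotein lipase, was highest in epididymal fat, at 758 ± 42.9 TPM. The aorta samples held the brown fat marker Ucp1 at 3589 to 11699.6 CPM (counts relative to the scaled library size). Their 8 adipocyte markers summed to 16869 to 28995 CPM, while the 4 smooth muscle markers summed to 231 to 1225 CPM. The part of these adipocyte transcripts in the aorta levels was not tested.

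The peroxisomal and mitochondrial genes differed far more between tissues than between groups. Summed over 5 peroxisomal genes, transcripts stood at 61.2% ± 4.36 of the sum over 18 mitochondrial genes in WT ND liver (SD, n = 3), at 27.01% ± 1.87 in hippocampus, 26.98% ± 1.78 in hypothalamus and 20.6% ± 1.31 in epididymal fat. They stood at 6.21% ± 1.60 in skeletal muscle, 4.01% ± 0.251 in aorta and 2.91% ± 0.103 in heart. Crat works in both places and was counted in neither sum. Acaa1b, a peroxisomal thiolase, alone made 1806 ± 222 of the 3149 ± 353 TPM of the peroxisomal sum in WT ND liver. In WT ND hippocampus it made 0.740 ± 0.214 of 139 ± 7.95 TPM. The high share in liver thus rests largely on 1 gene, and the tissue shares were not computed without it. Skeletal muscle had the widest difference between groups. The 3 mice were at 7.93%, 4.76% and 5.93% in WT ND and 12.9%, 11% and 14.2% in ob/ob ND, which do not overlap, a difference of 1.06 on the log2 scale. The 8 adipocyte markers also differed without overlap between these groups, at 537 to 2863 CPM in WT ND and 12902 to 18005 CPM in ob/ob ND, and their part in the ratio was not tested. In ob/ob HFD muscle they were at 7.61%, 16.7% and 11.8%, overlapping the 8.45%, 9.26% and 6.03% of WT HFD. In liver the ob/ob HFD mice were at 56.5%, 56.5% and 57.2%, below the 61.6%, 68.2% and 68.4% of ob/ob ND (log2 difference -0.22) and below the 67.4%, 60.3% and 58.2% of WT HFD (-0.12). Without the peroxisomal thiolases Acaa1a and Acaa1b these differences were -0.062 and 0.16. Other differences without overlap were seen in heart (ob/ob minus WT on ND, -0.10) and aorta (HFD minus ND in WT, -0.16). The heart groups almost touched, with the lowest WT ND mouse at 2.7878% and the highest ob/ob ND mouse at 2.7873%. The other 23 of the 28 differences had overlapping mice. These sums are given without a test, and Eci2 is also found in mitochondria.

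**Figure D1:**
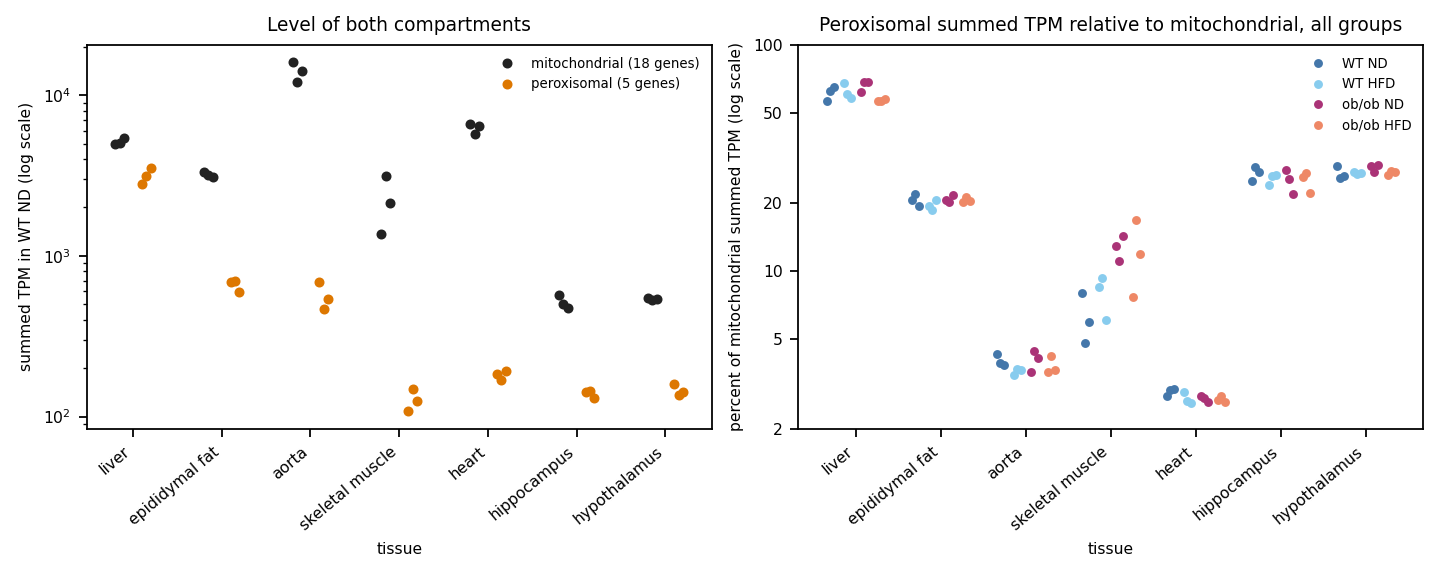
Left, summed TPM of 18 mitochondrial and 5 peroxisomal genes in WT ND mice, 1 point per mouse, on a log scale, by tissue. Right, the peroxisomal sum as percent of the mitochondrial sum in all 84 libraries, on a log scale, colored by group. Liver is highest near 61.2% ± 4.36 (WT ND), heart lowest at 2.91% ± 0.103, and skeletal muscle has the widest spread.

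The effect of genotype was tested on each diet, and that of diet in each genotype, in each tissue by itself. Genes are called higher or lower where edgeR's quasi-likelihood test gave a Benjamini-Hochberg adjusted p under 0.05 over all genes tested in that tissue, with n = 3 mice a group. Values in parentheses written with ± are log2 fold changes of the first-named group against the second, with the standard error. Of the 34 genes, 27 passed the filter on low counts in all 7 tissues. Acaa1b did not pass in heart nor Ucp3 in liver. Vnn1 was tested in 4 tissues, Cpt1b and Fgf21 in 3, and Cyp4a10 and Cyp4a14 only in liver and epididymal fat. Total counts were 10499528 to 17040790 per library. Of marker genes for the labelled tissues, 5 neuron markers summed to 4179.6 to 6406 CPM in hippocampus and 2837 to 3463 in hypothalamus, and 6 heart muscle markers to 14976 to 23231 in heart. The libraries of a group correlated with each other at a mean of 0.958 or more (log CPM over tested genes), except the 3 of ob/ob HFD skeletal muscle at 0.879, 0.899 and 0.932. The labels name separate mice but no cohorts or cages, and the comparisons within a tissue share groups: WT ND enters both ob/ob against WT on ND and HFD against ND in WT.

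**Figure D2:**
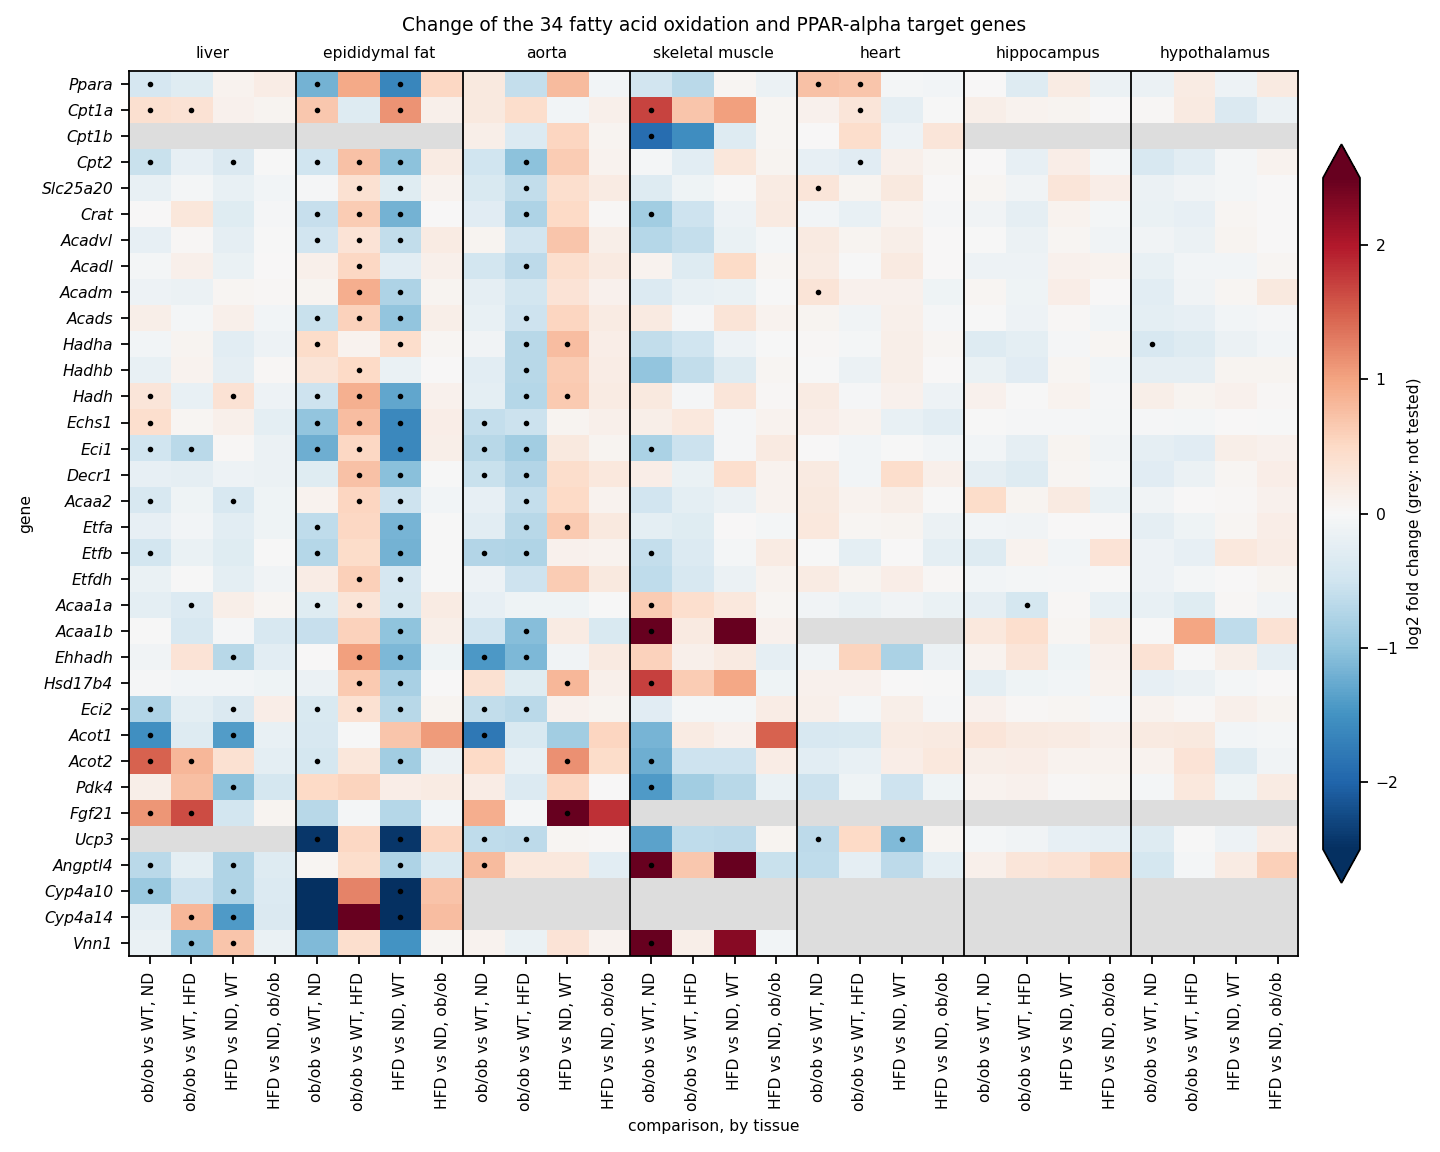
Log2 fold change of each of the 34 genes (rows) in 4 comparisons within 7 tissues (columns), red for higher and blue for lower, with colors saturated beyond 2.5. Black dots mark an adjusted p under 0.05 and grey marks genes not tested. Dots are dense in epididymal fat for HFD minus ND in WT (27 genes) and absent from every column of HFD minus ND in ob/ob.

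In liver on the normal diet, ob/ob mice had less Ppara and more Cpt1a and Acot2. Of the genes listed as other PPAR-alpha targets, Angptl4 and Cyp4a10 were lower and Fgf21 was higher. Pdk4, Cyp4a14 and Vnn1 were not called, and Ucp3 was not tested. Of 32 tested members 5 were higher and 9 lower, beside 19.3% and 17.1% of all tested genes. Ppara was at 167, 186 and 209.9 CPM in WT ND, 206, 211 and 177 in WT HFD, 147, 150.1 and 124 in ob/ob ND and 175, 132 and 175 in ob/ob HFD, with mice 1, 2 and 3 in that order here and below. It was lower in ob/ob ND than in WT ND (-0.42 ± 0.13, adjusted p = 0.0222), without overlap. In the carnitine shuttle the first and last enzyme differed in opposite directions. Cpt1a was at 561, 601 and 627 CPM in WT ND, 642, 728 and 545 in WT HFD, 789.9, 805 and 768 in ob/ob ND and 879.6, 751 and 846 in ob/ob HFD. All 6 ob/ob mice were above all 6 WT mice, and the difference was called on both diets (0.40 ± 0.11, adjusted p = 0.0115 on ND, and 0.37 ± 0.11, adjusted p = 0.0312 on HFD). Cpt2, which turns acylcarnitines back into acyl-CoA, was at 248, 279.6 and 291 CPM in WT ND, 218, 208 and 212 in WT HFD, 175, 213 and 166 in ob/ob ND and 185, 174 and 191 in ob/ob HFD. It was lower in ob/ob than WT on ND (-0.56 ± 0.10, adjusted p = 0.000782) and lower on HFD than ND in WT (-0.36 ± 0.10, adjusted p = 0.0218).

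The acyl-CoA dehydrogenases did not pass the test in any liver comparison. Among the later mitochondrial steps on ND, Echs1, the short-chain enoyl-CoA hydratase, and Hadh, the short-chain hydroxyacyl-CoA dehydrogenase, were higher in ob/ob mice (0.42 ± 0.11 and 0.30 ± 0.11 on the log2 scale). Eci1, an isomerase for unsaturated chains, Acaa2 and Etfb were lower (-0.50 ± 0.12, -0.40 ± 0.10 and -0.46 ± 0.11). Eci1 was at 218, 215 and 239 CPM in WT ND, 243, 207 and 235 in WT HFD, 168, 167 and 141 in ob/ob ND and 134, 128 and 171 in ob/ob HFD, and the ob/ob mice were below the WT mice on both diets (-0.67 ± 0.12, adjusted p = 0.00198 on HFD). Of the 5 peroxisomal genes only Eci2 was called on ND. It was at 346, 365 and 365 CPM in WT ND, 284, 274 and 279 in WT HFD, 201, 242 and 188 in ob/ob ND and 249, 223 and 232 in ob/ob HFD (-0.77 ± 0.10, adjusted p = 5.37e-05). Acaa1a was the single peroxisomal call on HFD (-0.35 ± 0.11, adjusted p = 0.0447). The thioesterases, which release free fatty acids from acyl-CoA, differed in opposite directions. Acot1, the cytosolic form, was at 76.1, 79.2 and 75.6 CPM in WT ND, 35.5, 27.7 and 24.6 in WT HFD, 23.1, 36.6 and 20.2 in ob/ob ND and 24.6, 23.5 and 22.6 in ob/ob HFD. Acot2, the mitochondrial form, was at 9.85, 8.85 and 11.3 CPM in WT ND, 14.9, 15.5 and 8.31 in WT HFD, 25.1, 33.8 and 24.3 in ob/ob ND and 20.4, 22.5 and 27.1 in ob/ob HFD, with all 6 ob/ob mice above all 6 WT mice. Acot1 was lower in ob/ob ND than in WT ND (-1.53 ± 0.18, adjusted p = 3.19e-05) and Acot2 higher (1.47 ± 0.21, adjusted p = 0.000142), in 3 of 3 mice each. The pair share sequence: 19.2% of the 50-base windows of Acot1 and 27.7% of those of Acot2 also occur in other genes, mainly of this family, so part of each level is uncertain.

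Among the target genes, Fgf21 was at 8.21, 13.02 and 17.9 CPM in WT ND, 10.4, 11.3 and 6.38 in WT HFD, 17.1, 43.1 and 23.3 in ob/ob ND and 24.5, 31.98 and 31.6 in ob/ob HFD. It was higher in ob/ob mice on ND (1.10 ± 0.33, adjusted p = 0.0179), where 1 ob/ob mouse lay within the WT range, and on HFD (1.63 ± 0.33, adjusted p = 0.00467), without overlap. Angptl4 was at 347, 339 and 328 CPM in WT ND, 192, 231 and 178 in WT HFD, 232, 245 and 156 in ob/ob ND and 158, 209 and 139 in ob/ob HFD: the WT ND mice stood above all others (-0.68 ± 0.17, adjusted p = 0.0077 for ob/ob on ND). Cyp4a10, an omega-hydroxylase, was at 1439, 1029 and 1066 CPM in WT ND, 768, 575 and 751 in WT HFD, 560.2, 916 and 384 in ob/ob ND and 463, 498 and 507 in ob/ob HFD (-0.93 ± 0.24, adjusted p = 0.0097), and 29.8% of its 50-base windows also occur in Cyp4a31 or Cyp4a32. The 6 hepatocyte markers summed to 107461 to 114468 CPM in WT ND, 86869 to 94072 in ob/ob ND, 78036 to 86410.1 in WT HFD and 65529.5 to 86173 in ob/ob HFD. Adipocyte markers summed to 37.1 to 329.6 CPM and macrophage markers to 91.96 to 614 CPM over the 12 livers, and their part in these results was not tested.

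On the high-fat diet 4 of 32 tested members were higher in ob/ob liver and 3 lower, beside 8.61% and 9.85% of all tested genes. Beside Cpt1a, Acot2 (0.84 ± 0.20, adjusted p = 0.0123) and Fgf21, the higher gene was Cyp4a14. Cyp4a14 was at 2746, 2745 and 3151 CPM in WT ND, 1446, 929 and 854 in WT HFD, 2165, 3389.9 and 1858 in ob/ob ND and 2186, 1486 and 2105 in ob/ob HFD (0.84 ± 0.24, adjusted p = 0.0255). Vnn1, a pantetheinase that frees cysteamine in coenzyme A turnover, was at 172, 185 and 229 CPM in WT ND, 358, 276 and 308 in WT HFD, 166, 196 and 163 in ob/ob ND and 152, 131 and 182 in ob/ob HFD and was lower in ob/ob (-1.02 ± 0.14, adjusted p = 0.000552). The 3 WT HFD mice were the highest for Vnn1 and the 3 lowest for Cyp4a14.

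In WT liver several PPAR-alpha targets were lower on the high-fat diet. Of 32 tested members 2 were higher (Hadh and Vnn1) and 9 lower, beside 12% and 9.87% of all tested genes. Acot1 (-1.39 ± 0.18, adjusted p = 0.000228), Cyp4a14 (-1.42 ± 0.24, adjusted p = 0.00137), Angptl4 (-0.75 ± 0.17, adjusted p = 0.00853) and Cyp4a10 (-0.76 ± 0.24, adjusted p = 0.0408) were lower. So was Pdk4, the kinase that shuts pyruvate dehydrogenase, at 22.5, 22.04 and 24.04 CPM in WT ND and 12.2, 14.1 and 6.96 in WT HFD (-1.03 ± 0.29, adjusted p = 0.0224). Ehhadh, the peroxisomal bifunctional enzyme, was at 754, 891 and 999.6 CPM in WT ND, 669, 493 and 472 in WT HFD, 809.6, 951 and 722 in ob/ob ND and 606, 770.2 and 688 in ob/ob HFD (-0.69 ± 0.16, adjusted p = 0.00778). In ob/ob liver 0 members were called for diet, beside 0.913% of all tested genes. With edgeR 2 had an unadjusted p under 0.05, and DESeq2 called 0. The diet effect differed between genotypes for 3 members, 2 with a more positive effect in ob/ob mice and 1 more negative, beside 2.2% and 3.96% of all tested genes: Acot1 (1.21 ± 0.25, adjusted p = 0.0141), Eci2 (0.52 ± 0.14, adjusted p = 0.0392) and Vnn1 (-0.86 ± 0.20, adjusted p = 0.0244). DESeq2 called 5.

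Of these calls, 10 of 14 (genotype on ND), 4 of 7 (genotype on HFD), 6 of 11 (diet in WT) and 1 of 3 (interaction, Acot1) held with each of the 12 liver libraries left out in turn. The diet count in WT fell from 11 to 7 without WT HFD mouse 2, WT ND mouse 2 or WT ND mouse 3, and the interaction count to 1 without WT ND mouse 1 or 2. Of 63 other genes of the pathway, 61 were tested, with 12 higher and 23 lower in ob/ob on ND, beside 19.3% and 17.1% of all tested genes. The smallest p values were those of Amacr (-0.998 ± 0.10, adjusted p = 1.15e-05), which handles branched chains, Hsdl2 (-0.86 ± 0.10, adjusted p = 3.05e-05) and Crot, the peroxisomal carnitine octanoyltransferase (-0.88 ± 0.11, adjusted p = 6.2e-05). In WT mice the diet gave 4 higher and 13 lower of the 61, beside 12% and 9.87% of all tested genes. Hacl1, the peroxisomal lyase of branched-chain oxidation, was at -1.43 ± 0.13, adjusted p = 3.21e-05.

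**Figure D3:**
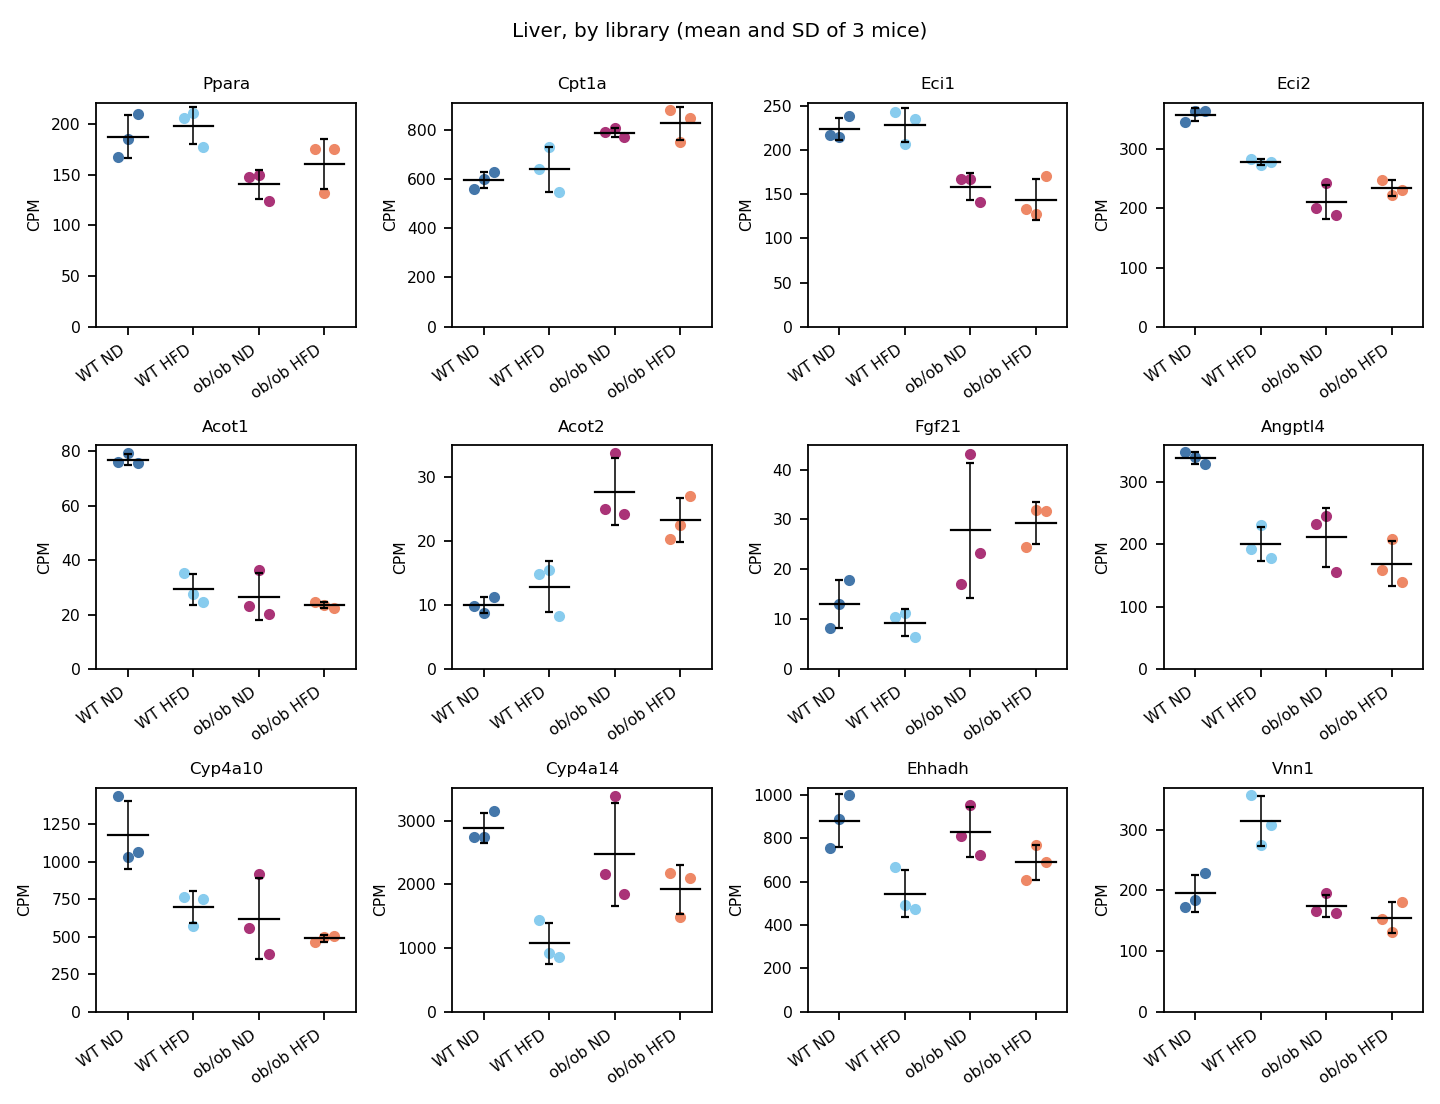
CPM of 12 genes in liver by group, 1 point per mouse, with the mean (line) and SD (bar) of 3 mice and axes from 0. Acot1 and Angptl4 are highest in the 3 WT ND mice, Cpt1a is higher in all 6 ob/ob than in all 6 WT mice, and Vnn1 is highest in WT HFD (358, 276 and 308 CPM).

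Epididymal fat had the most calls. In WT mice most steps of the chain were lower on the high-fat diet: of 33 tested members 25 were lower and 2 higher, beside 30.3% and 28.6% of all tested genes, with a median log2 fold change of -0.86 beside -0.04 over all tested genes. Ppara was at 7.35, 6.68 and 6.37 CPM in WT ND, 0.996, 2.36 and 3.16 in WT HFD, 2.54, 3.52 and 2.85 in ob/ob ND and 5.35, 4.19 and 3.19 in ob/ob HFD, with the 3 WT ND mice above the 9 others. It was lower on HFD in WT (-1.64 ± 0.34, adjusted p = 0.00184) and lower in ob/ob than WT on ND (-1.19 ± 0.34, adjusted p = 0.0129). These Ppara levels rest on few reads: 92, 82 and 87 in WT ND, 13, 33 and 44 in WT HFD, and 33, 51 and 38 in ob/ob ND. Ucp3 was at 51.7, 56.2 and 52.95 CPM in WT ND, 4.98, 8.02 and 16.8 in WT HFD, 8.92, 7.80 and 12.99 in ob/ob ND and 13.9, 16.4 and 12.7 in ob/ob HFD. WT ND again stood apart (-2.43 ± 0.34, adjusted p = 0.000134 for diet in WT, and -2.44 ± 0.34, adjusted p = 0.000202 for genotype on ND).

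In the carnitine shuttle Cpt1a was higher on HFD than ND in WT, while Cpt2, Slc25a20 and Crat were lower and Cpt1b was not tested. Cpt1a was at 151, 158 and 159.5 CPM in WT ND, 365, 339 and 316 in WT HFD, 284, 226 and 233 in ob/ob ND and 260.5, 292 and 263 in ob/ob HFD, with the 3 WT ND mice lowest and the 3 WT HFD mice highest (1.12 ± 0.11, adjusted p = 1.04e-05 for diet in WT, 0.66 ± 0.11, adjusted p = 0.000468 for genotype on ND). Cpt2 was at 112, 104 and 101 CPM in WT ND, 41.1, 50.9 and 62.5 in WT HFD, 63.6, 73.2 and 87.5 in ob/ob ND and 95.8, 77.9 and 83.8 in ob/ob HFD (-1.03 ± 0.16, adjusted p = 0.000207 for diet in WT). Crat, which moves acetyl groups onto carnitine, was at 382, 355 and 296 CPM in WT ND, 135, 141 and 179.5 in WT HFD, 198, 215 and 282 in ob/ob ND and 253, 221 and 229 in ob/ob HFD (-1.18 ± 0.16, adjusted p = 0.000103). For both genes the 3 WT ND mice were highest and the 3 WT HFD mice lowest, with the 6 ob/ob mice in between. Of the acyl-CoA dehydrogenases 3 of 4 were lower on HFD in WT: Acads, the short-chain enzyme (-0.98 ± 0.13), Acadm, the medium-chain enzyme (-0.78 ± 0.27) and Acadvl, the very-long-chain enzyme (-0.61 ± 0.10). Acadl was not called (-0.26 ± 0.12). Echs1 was at 279.7, 274 and 214 CPM in WT ND, 71.3, 76.8 and 104 in WT HFD, 107, 137 and 141 in ob/ob ND and 167, 119 and 146 in ob/ob HFD (-1.60 ± 0.18, adjusted p = 3.45e-05). Hadh was at 432, 445 and 377 CPM in WT ND, 141, 172 and 196 in WT HFD, 259.9, 301 and 320.4 in ob/ob ND and 374, 278 and 294 in ob/ob HFD (-1.30 ± 0.15, adjusted p = 4.28e-05). Both had the same order of groups, without overlap between WT ND, the ob/ob mice and WT HFD. Eci1 had the smallest adjusted p of the members in the diet comparison (-1.61 ± 0.14, adjusted p = 5.91e-06). Hadha, the alpha subunit of the trifunctional protein, was at 224, 209 and 201 CPM in WT ND, 247, 280.3 and 331 in WT HFD, 283, 266 and 325 in ob/ob ND and 309, 299.99 and 299 in ob/ob HFD. It was the other gene higher on HFD (0.44 ± 0.12, adjusted p = 0.00844), while its partner Hadhb was not called (-0.17 ± 0.15).

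All 3 electron transfer genes were lower on HFD in WT fat (Etfa -1.17 ± 0.19, Etfb -1.18 ± 0.14, Etfdh -0.42 ± 0.14), and so were all 5 peroxisomal genes. Eci2 was at 103, 109 and 89.6 CPM in WT ND, 60.6, 65.1 and 61.3 in WT HFD, 71.2, 78.9 and 82.3 in ob/ob ND and 86.7, 75.7 and 80.01 in ob/ob HFD (-0.69 ± 0.09, adjusted p = 0.000101). Hsd17b4, the D-bifunctional protein, was at 458, 452 and 362 CPM in WT ND, 193, 228 and 308 in WT HFD, 329, 367 and 451 in ob/ob ND and 424, 359 and 366 in ob/ob HFD (-0.80 ± 0.18, adjusted p = 0.00288). The 3 WT HFD mice were the lowest for both. Angptl4 was lower too (-0.78 ± 0.19, adjusted p = 0.00396), as was Acot2 (-0.86 ± 0.16). Cyp4a14 was at 7.98, 34.4 and 0.439 CPM in WT ND, 0.383, 0.430 and 0.288 in WT HFD, 2.23, 1.93 and 0.600 in ob/ob ND and 2.47, 5.69 and 0.0710 in ob/ob HFD. Cyp4a10 was at 1.36, 13.6 and 0.220 CPM in WT ND, 0, 0.716 and 0.288 in WT HFD, 0.923, 0.276 and 0.300 in ob/ob ND and 0.659, 1.82 and 0 in ob/ob HFD. Both were called lower on HFD in WT, with WT ND mouse 2 far above the rest. That mouse also had 1394 CPM of Alb, the hepatocyte gene for albumin, where the WT ND mice 1 and 3 had 211 and 29 and the other 9 fat libraries 4.54 to 154 CPM. Without that library the log2 difference of Cyp4a10 went from -3.86 to -1.16 and was no longer called, and that of Cyp4a14 went from -5.24 to -3.46. The part of liver transcripts in these levels was not tested.

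Called members were mostly lower in ob/ob than WT fat on ND, and higher on HFD. On ND 14 of 33 tested members were lower and 2 higher (Cpt1a and Hadha), beside 23% and 25.2% of all tested genes. On HFD 18 were higher and 0 lower, beside 10.1% and 7.5% of all tested genes. On HFD these were 3 carnitine shuttle genes, all 4 acyl-CoA dehydrogenases, 6 of the 7 later mitochondrial genes, Etfdh, and 4 of the 5 peroxisomal genes. Examples were Hadh (0.90 ± 0.15, adjusted p = 0.00734), Cpt2 (0.74 ± 0.16, adjusted p = 0.0133), Acadm (0.91 ± 0.27, adjusted p = 0.0405) and Ehhadh (1.02 ± 0.30, adjusted p = 0.0406). The median over the tested members was -0.44 on ND and 0.53 on HFD, beside -0.01 and -0.0012 over all tested genes. For diet in ob/ob mice 0 members were called, beside 0% of all tested genes. With edgeR 2 members had an unadjusted p under 0.05, and DESeq2 called 0. The difference of the diet effects was called for 20 members, 19 with a more positive effect in ob/ob mice and 1, Cpt1a, with a more negative one, beside 19.4% and 20.7% of all tested genes. It was 2.96 ± 0.48, adjusted p = 0.000833 for Ucp3 and 1.77 ± 0.26, adjusted p = 0.000447 for Echs1.

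Cell type markers differed between the same groups. In these bulk samples fewer cells of a type and less RNA per cell cannot be told apart. The 8 adipocyte markers summed to 43001, 46002 and 35359 CPM in the WT ND mice, 4109, 6849.9 and 12784 in WT HFD, 14863, 19395 and 22046 in ob/ob ND and 21094, 17132 and 16393 in ob/ob HFD. Adipoq, the adipocyte gene for adiponectin, was at 5951, 7192 and 5848 CPM in WT ND and 284, 568 and 1115 in WT HFD. The 8 macrophage markers summed to 2001, 2014 and 1908 CPM in WT ND, 18298, 18116 and 9884 in WT HFD, 11317, 8031 and 6703 in ob/ob ND and 8532, 12308 and 9012 in ob/ob HFD. Their part in the results was not tested. Of the calls, 24 of 27 for diet in WT, 10 of 16 for genotype on ND and 15 of 20 for the interaction held with each library left out in turn, but only 1 of 18 (Hadh) for genotype on HFD. There the count of 18 became 4 without WT HFD mouse 1, 1 without WT HFD mouse 2, and 1, 11 and 8 without ob/ob HFD mouse 1, 2 and 3. The ND count of 16 became 10 without ob/ob ND mouse 1. Of 55 other pathway genes tested, 33 were lower and 12 higher for diet in WT, beside 30.3% and 28.6% of all tested genes. Hacl1 was lower (-1.79 ± 0.13, adjusted p = 1.27e-06), and higher were Plin2, a lipid droplet coat protein (2.87 ± 0.18, adjusted p = 5.62e-07), and Ucp2 (2.02 ± 0.13, adjusted p = 6.16e-07), which macrophages also express.

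**Figure D4:**
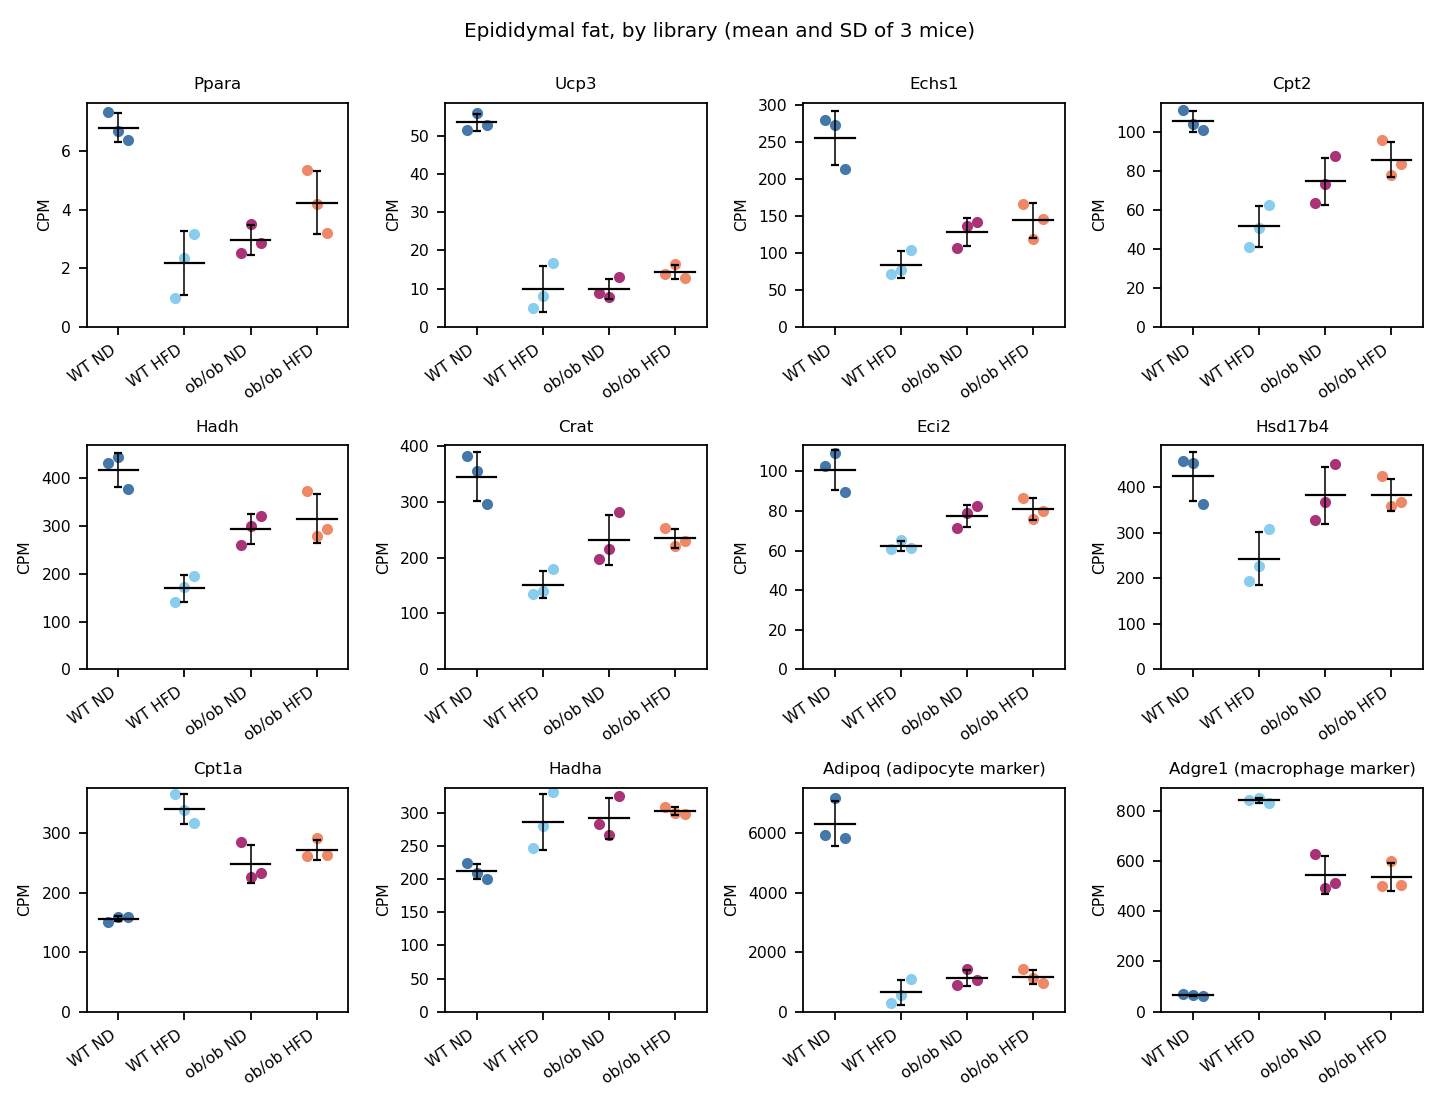
CPM of 10 genes and of an adipocyte and a macrophage marker in epididymal fat by group, 1 point per mouse, with the mean (line) and SD (bar) of 3 mice and axes from 0. Ppara, Echs1, Cpt2, Hadh, Crat and Eci2 are highest in the 3 WT ND mice, as is Adipoq. Cpt1a and the macrophage marker Adgre1 are both lowest in the 3 WT ND and highest in the 3 WT HFD mice.

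In aorta several mitochondrial and peroxisomal genes were lower in ob/ob mice on each diet. On ND 8 of 32 tested members were lower and 1 higher, beside 15.9% and 15.9% of all tested genes. On HFD 18 were lower and 0 higher, beside 7.84% and 8.34% of all tested genes, with a median of -0.60 beside 0.03 over all tested genes. Ehhadh was at 308, 182 and 212 CPM in WT ND, 211, 211 and 239.7 in WT HFD, 87.04, 104 and 69.9 in ob/ob ND and 95.2, 146 and 62.4 in ob/ob HFD, and all 6 ob/ob mice were below all 6 WT mice (-1.43 ± 0.27, adjusted p = 0.00253 on ND, and -1.13 ± 0.27, adjusted p = 0.0158 on HFD). Eci1 was at 695, 480.0 and 673 CPM in WT ND, 746, 680.1 and 777 in WT HFD, 445, 360.4 and 337 in ob/ob ND and 413, 419 and 368 in ob/ob HFD, again without overlap (-0.69 ± 0.16, adjusted p = 0.00716 and -0.88 ± 0.16, adjusted p = 0.00433). Also called on both diets were Eci2, Echs1, Etfb, Ucp3 and Decr1, the reductase for unsaturated chains. Echs1 was at 1189.8, 970.3 and 1168 CPM in WT ND, 1229.8, 1083 and 1176 in WT HFD, 875, 628 and 699 in ob/ob ND and 898, 768 and 729.6 in ob/ob HFD, without overlap between the genotypes. Acot1 was at 21.04, 14.4 and 18.6 CPM in WT ND, 8.99, 8.45 and 12.3 in WT HFD, 4.14, 7.504 and 4.14 in ob/ob ND and 10.01, 8.17 and 4.84 in ob/ob HFD and was lower on ND (-1.78 ± 0.29, adjusted p = 0.00105). The difference on HFD was -0.37 ± 0.29 and was not called. Angptl4 was the gene higher in ob/ob on ND, at 506, 589 and 485 CPM beside 312, 220.0 and 376 in WT ND (0.80 ± 0.17, adjusted p = 0.0049).

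On HFD all 7 later mitochondrial genes were lower in ob/ob aorta, from -0.54 for Echs1 to -0.88 for Eci1 on the log2 scale, with Cpt2 at 630.1, 381 and 507 CPM in WT ND, 753, 782 and 813 in WT HFD, 426, 329 and 318 in ob/ob ND and 342, 451 and 355 in ob/ob HFD (-1.03 ± 0.19, adjusted p = 0.00417). The peroxisomal thiolase Acaa1b was lower too (-1.07 ± 0.19, adjusted p = 0.00374), while Acaa1a and Hsd17b4 were not called (-0.11 ± 0.14 and -0.31 ± 0.17). Ppara was not called on either diet (0.25 ± 0.32 on ND, -0.60 ± 0.32 on HFD). For diet in WT, 6 members were higher and 0 lower, beside 2.13% and 2.07% of all tested genes: Hadha, Hadh, Etfa, Hsd17b4, Acot2 and Fgf21. Fgf21 had 3 reads in each WT ND library and 13 to 31 in WT HFD, so only its level is given, at 0.223, 0.209 and 0.215 CPM and 1.38, 2.16 and 1.04. Hsd17b4 was at 378, 213 and 296 CPM in WT ND and 519.6, 522 and 536 in WT HFD (0.83 ± 0.17, adjusted p = 0.0208). In ob/ob aorta 0 members were called for diet, beside 0% of all tested genes, with 1 unadjusted p under 0.05. For the interaction it was 0, beside 0.427%, with 5 unadjusted p under 0.05. DESeq2 called 0 in both, and without WT ND mouse 1 edgeR called 1 for the interaction.

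Brown fat markers were lower in the same mice. The 6 markers summed to 15152, 10862 and 14374 CPM in WT ND, 12491, 10889 and 13290.5 in WT HFD, 8910.2, 5828 and 6841 in ob/ob ND and 8961, 7372 and 9070.0 in ob/ob HFD, with all 6 ob/ob mice below all 6 WT mice. The 8 adipocyte markers overlapped between genotypes on ND (19886 to 28995 CPM in WT, 16869 to 20242 in ob/ob) and on HFD (20227 to 20732 CPM in WT, 18166 to 20605 in ob/ob). Their part in the results was not tested. The call held with each library left out for 6 of 9 members on ND, 6 of 18 on HFD and 0 of 6 for diet in WT. The count of 9 on ND became 16 without WT ND mouse 2, and the 18 on HFD became 8, 6 and 6 without WT HFD mouse 1, WT HFD mouse 3 and ob/ob HFD mouse 3. The diet count in WT became 0 without WT HFD mouse 1, WT HFD mouse 2 or WT ND mouse 3, 1 without WT HFD mouse 3 or WT ND mouse 2, and 13 without WT ND mouse 1 or with DESeq2. Of 54 other pathway genes tested, 13 were lower and 10 higher in ob/ob on ND, beside 15.9% and 15.9% of all tested genes. On HFD 14 were lower and 6 higher, beside 7.84% and 8.34%. Ppargc1a, the coactivator of PPARs and of mitochondrial biogenesis, was higher on ND at 289.6 ± 80.7 CPM beside 129.6 ± 35.7 in WT (1.16 ± 0.25, adjusted p = 0.00477), and Decr2, the peroxisomal reductase, was lower on HFD (-1.02 ± 0.16, adjusted p = 0.00167).

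In skeletal muscle on the normal diet 6 of 31 tested members were higher in ob/ob mice and 6 lower, beside 26.6% and 18.3% of all tested genes. The higher ones were Cpt1a, the peroxisomal genes Acaa1a, Acaa1b and Hsd17b4, and the targets Angptl4 and Vnn1. The lower ones were Cpt1b, Crat, Eci1, Etfb, Acot2 and Pdk4. Angptl4 was at 27.5, 34.3 and 67.1 CPM in WT ND, 294, 286 and 162 in WT HFD, 673, 497 and 577 in ob/ob ND and 107, 774 and 307 in ob/ob HFD (3.76 ± 0.65, adjusted p = 0.00331). Hsd17b4 was at 56.99, 92.4 and 81.7 CPM in WT ND, 156, 167 and 127 in WT HFD, 260.3, 229 and 267 in ob/ob ND and 95.5, 359 and 248 in ob/ob HFD (1.71 ± 0.39, adjusted p = 0.00769). For both, the 3 ob/ob ND mice were above the 3 WT ND mice, and ob/ob HFD mouse 1 was far below the ob/ob HFD mice 2 and 3. Cpt1a was at 28.8, 23.7 and 29.3 CPM in WT ND, 58.2, 65.9 and 42.3 in WT HFD, 90.9, 84.3 and 86.9 in ob/ob ND and 40.2, 134 and 95.8 in ob/ob HFD (1.68 ± 0.35, adjusted p = 0.00534). Cpt1b, the muscle form, was at 6.53, 11.4 and 7.62 CPM in WT ND, 5.77, 5.57 and 9.23 in WT HFD, 2.46, 2.51 and 1.83 in ob/ob ND and 3.81, 0.639 and 2.64 in ob/ob HFD (-1.91 ± 0.50, adjusted p = 0.0121). The 3 ob/ob ND mice were above the 3 WT ND mice for Cpt1a and below them for Cpt1b. Of the exon bases of Cpt1b 81.4% are shared with Chkb, so its level, also beside that of Cpt1a, is uncertain. Acaa1b was at 2.81, 1.24 and 3.98 CPM in WT ND and 18.5, 12.7 and 18.02 in ob/ob ND (2.61 ± 0.60, adjusted p = 0.00773). Pdk4 was at 1464, 2495 and 1763 CPM in WT ND, 1200.0, 1056 and 1292 in WT HFD, 657, 1119.6 and 377 in ob/ob ND and 1151, 402 and 379 in ob/ob HFD (-1.41 ± 0.51, adjusted p = 0.0426). Ppara was not called (-0.47 ± 0.58), nor was any acyl-CoA dehydrogenase.

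Cell type markers differed between these groups too. The 7 fibre markers summed to 220345, 101519 and 138241 CPM in WT ND and 26514, 57835 and 26464 in ob/ob ND, and to 94086, 103728 and 84123 in WT HFD and 119309, 4805 and 19146 in ob/ob HFD. The 8 adipocyte markers summed to 537, 1446 and 2863 CPM in WT ND, 9429, 10282 and 6067 in WT HFD, 16178, 12902 and 18005 in ob/ob ND and 3994, 24685 and 16855 in ob/ob HFD. The ob/ob HFD mouse 1 had the most fibre and the fewest adipocyte transcripts of its group. Their part in the results was not tested. For genotype on HFD 0 members were called, beside 0.0194% of all tested genes, with 1 unadjusted p under 0.05. For diet 0 were called in WT (0% of all tested genes) and 0 in ob/ob (0%), with 5 and 0 unadjusted p under 0.05. For the interaction 0 were called (0%), with 3. DESeq2 called 0, 2, 0 and 0 in these comparisons. Without ob/ob HFD mouse 1 the counts were 7 for genotype on HFD and 4 for diet in WT. On ND 5 of the 12 calls held with each library left out, and the count became 6 without WT ND mouse 2, 5 without ob/ob ND mouse 1 and 6 without ob/ob ND mouse 3. Of 53 other pathway genes tested on ND, 13 were higher and 11 lower, beside 26.6% and 18.3% of all tested genes. Plin2 was at 539 ± 44.4 CPM in ob/ob ND beside 47.98 ± 8.15 in WT ND (3.49 ± 0.57, adjusted p = 0.00326).

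**Figure D5:**
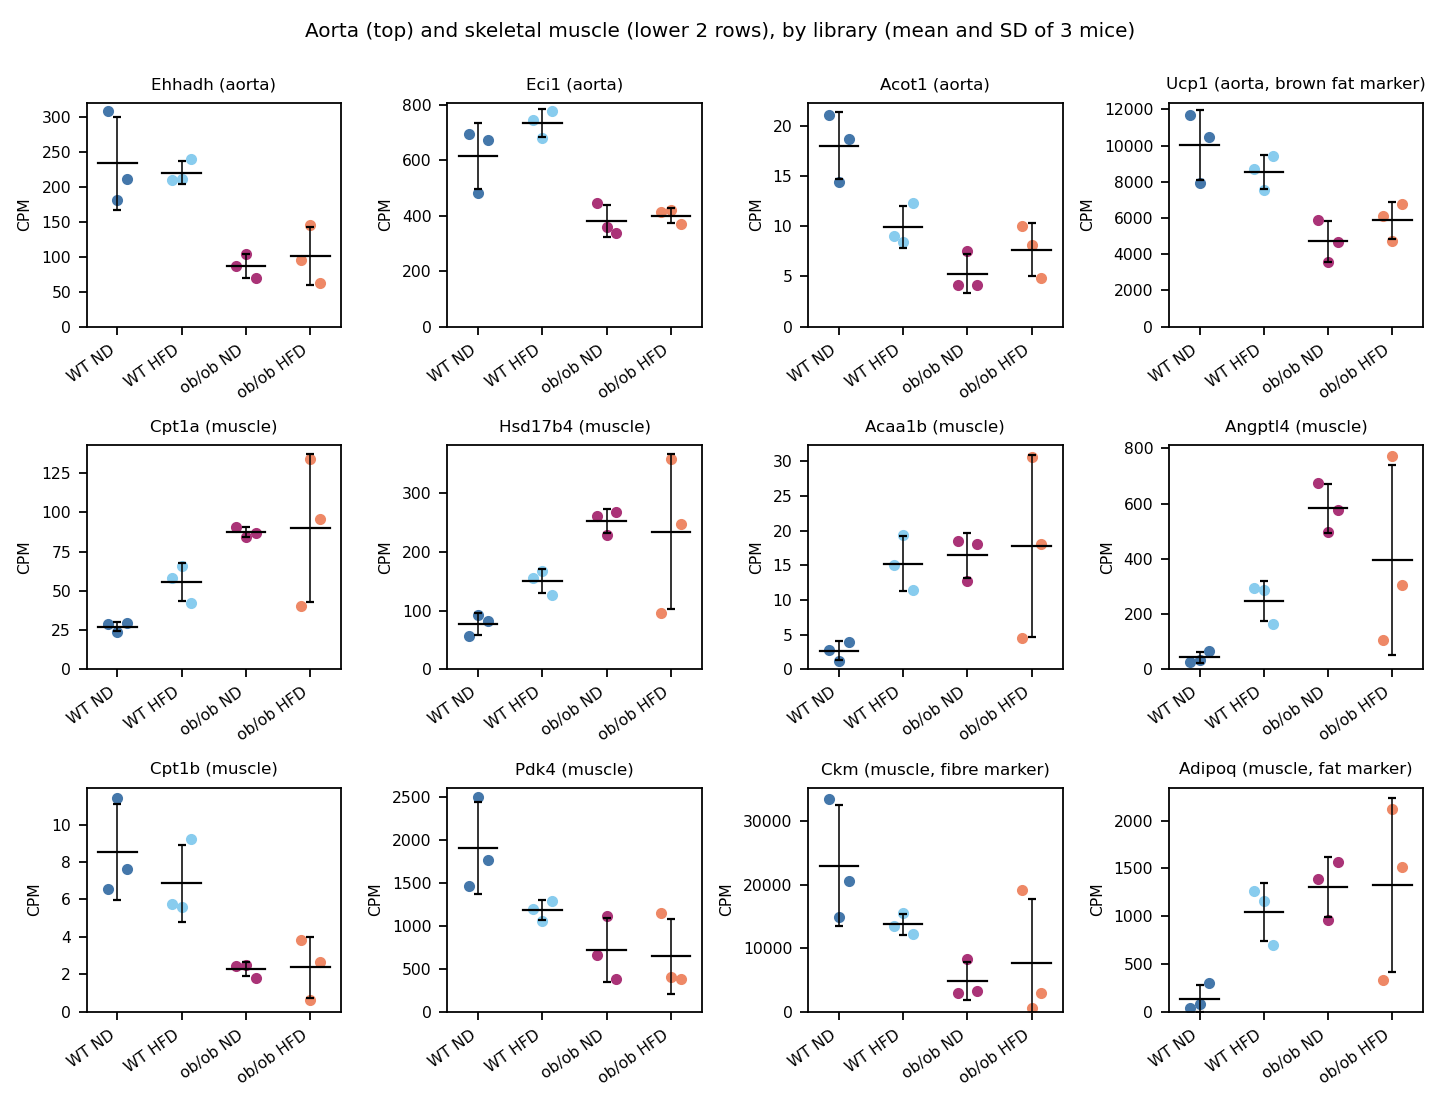
CPM by group, 1 point per mouse, with the mean (line) and SD (bar) of 3 mice and axes from 0. Top row, aorta: Ehhadh, Eci1 and the brown fat marker Ucp1 are lower in all 6 ob/ob than in all 6 WT mice. Lower rows, skeletal muscle: Cpt1a, Hsd17b4, Acaa1b and Angptl4 are higher and Cpt1b and Pdk4 lower in ob/ob ND than in WT ND, beside the fibre marker Ckm and the fat marker Adipoq.

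In heart the receptor itself was higher in ob/ob mice on both diets. Ppara was at 22.02, 22.4 and 21.1 CPM in WT ND, 18.4, 23.2 and 22.1 in WT HFD, 37.1, 38.9 and 32.7 in ob/ob ND and 34.96, 27.1 and 41.2 in ob/ob HFD, and all 6 ob/ob mice were above all 6 WT mice (0.73 ± 0.13, adjusted p = 0.0019 on ND, 0.69 ± 0.13, adjusted p = 0.00196 on HFD). This call held with each library left out. Few other members were called. On ND 3 of 29 were higher and 1 lower, beside 6.26% and 6.48% of all tested genes. Slc25a20, the carrier that takes acylcarnitines across the inner membrane, was at 219, 197 and 235 CPM in WT ND and 257, 261 and 285 in ob/ob ND (0.30 ± 0.09, adjusted p = 0.0437), and Acadm at 1303, 1125 and 1317 and 1534, 1520.3 and 1636 (0.32 ± 0.10, adjusted p = 0.0395). Ucp3 was at 74.4, 107 and 99.7 CPM in WT ND, 47.9, 41.5 and 41.2 in WT HFD, 67.2, 69.6 and 43.4 in ob/ob ND and 65.9, 78.1 and 40.9 in ob/ob HFD. It was lower in ob/ob than WT on ND (-0.65 ± 0.20, adjusted p = 0.0415) and lower on HFD than ND in WT (-1.11 ± 0.20, adjusted p = 0.0343), where it was the only one of 29 tested members called, beside 0.11% and 0.146% of all tested genes for higher and lower. On HFD 2 members were higher in ob/ob (Ppara and Cpt1a) and 1 lower (Cpt2, -0.28 ± 0.09, adjusted p = 0.0473), beside 8.82% and 8.36% of all tested genes. For diet in ob/ob 0 members were called, beside 0.0219% of all tested genes, and for the interaction 0, beside 0%, with 4 and 2 unadjusted p under 0.05 and 0 calls by DESeq2. Apart from Ppara the heart calls were lost in some fit without 1 library: the count of 4 on ND became 1 without WT HFD mouse 2, WT ND mouse 2 or ob/ob ND mouse 1, and 2 without WT ND mouse 1, WT ND mouse 3 or ob/ob ND mouse 3. The 3 on HFD became 1 without WT HFD mouse 2, WT HFD mouse 3 or ob/ob HFD mouse 1, and 5 without ob/ob ND mouse 3. The single Ucp3 call for diet in WT was lost without any of the WT HFD mice or without WT ND mouse 2 or 3. Among 55 other pathway genes tested, Ppargc1a was higher in ob/ob heart on both diets, at 215 ± 33.3 CPM beside 85.1 ± 15.6 on ND and 228 ± 27.4 beside 96.3 ± 20.5 on HFD (1.34 ± 0.16, adjusted p = 0.000104, and 1.24 ± 0.16, adjusted p = 0.000123). In all, 5 were higher and 1 lower on ND, beside 6.26% and 6.48% of all tested genes. On HFD 12 were higher and 2 lower, beside 8.82% and 8.36%.

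In both brain regions few members were called. In hippocampus 1 of 29 tested members was lower in ob/ob on HFD and 0 higher, beside 0.911% and 0.648% of all tested genes: Acaa1a, at 55.1, 62.1 and 52.2 CPM in WT HFD and 39.3, 41.6 and 43.9 in ob/ob HFD (-0.44 ± 0.09, adjusted p = 0.0426). In hypothalamus 1 of 29 was lower in ob/ob on ND and 0 higher, beside 2.98% and 2.32% of all tested genes: Hadha, at 81.7, 74.3 and 69.6 CPM in WT ND and 54.98, 64.3 and 50.6 in ob/ob ND (-0.41 ± 0.10, adjusted p = 0.0387). Both calls were lost in most of the fits that left out 1 library, Acaa1a in 10 of 12 and Hadha in 8 of 12. Without WT ND mouse 1 the hypothalamus counts became 8 for genotype on ND and 2 for genotype on HFD. In the other comparisons of both regions 0 members were called, beside 3.48% (hippocampus) of all tested genes for genotype on ND, 2.13% (hypothalamus) for genotype on HFD, and 0% for diet in each genotype and the interaction in each region. Unadjusted p was under 0.05 for 3 members in each of those genotype comparisons and for 0 or 1 in the others, and DESeq2 called 0 in each.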

How the data were processed

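The values deposited by the authors are whole-number read counts per gene for all 84 libraries. Read pairs over exons were counted per gene with featureCounts 1.5.1 on a GRCm38 annotation and without a strand option, per the file headers. The submitters' processing notes name HISAT2 2.0.5, Trimmomatic 0.36 and featureCounts 1.5.0-p2, another version than in the header. Total counts of 10499528 to 17040790 per library set the precision, and Python 3.11.15 with pandas 2.3.3 was used to prepare tables.

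Groups came from the sample labels, 3 mice each. The titles of the 6 WT HFD libraries of hippocampus and hypothalamus spell the diet HDF, and their diet label reads HFD. The mouse numbers were not used as pairs. In each tissue, edgeR 4.0.16 (R 4.3.3) was fitted by quasi-likelihood to the 12 libraries and 4 groups, with TMM scaling and genes kept by filterByExpr (smallest count 10, smallest total 15). There were 4 contrasts of 2 groups and their interaction, each adjusted by Benjamini-Hochberg over all genes tested in the tissue, with 0.05 as threshold. CPM is relative to the TMM-scaled library size, TPM uses the deposited exon length, and both only describe. The fitting was tested on simulated data.

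The results were recomputed without the filter, with each library left out, with the replicate block, with DESeq2 1.42.0 and with DESeq2's scaling in edgeR, and the ratio with geometric means (pseudocount 0.1), Eci2 as mitochondrial, and both Acaa1 genes left out. The members, the 63 other pathway genes and the marker lists were chosen with earlier results of these data known. Any member could be named, those with the smallest p of each role first, and of the other pathway genes up to 3 per tissue and comparison with the smallest p among those called. The deposited tables of weights, blood values and body composition were not used here. Shared exon bases were taken from the annotation, and shared 50-base windows from its transcripts.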

Additional observations from a re-analysis of the deposited data

Results flagged for a closer look

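The effect of the high-fat diet differed between ob/ob and WT mice in 23 cases by the interaction test of the per-tissue model, with edgeR's adjusted p under 0.05, and the values are the diet effect in ob/ob minus that in WT on the log2 scale. In epididymal fat there were 20 of 33 tested members, 19 higher and 1 lower, beside 19.4% and 20.7% of all tested genes. The receptor Ppara, with 13 to 44 reads per library in WT HFD fat, was at 2.15. In the carnitine shuttle Cpt2 was at 1.23, Crat at 1.20 and Slc25a20 at 0.41, while Cpt1a was at -0.99. Of the dehydrogenases Acads was at 1.14 and Acadvl at 0.81. The later mitochondrial genes were Echs1 at 1.77, Eci1 at 1.75, Hadh at 1.40 and Decr1 at 1.03, and the flavoproteins Etfa at 1.17 and Etfb at 1.17. The peroxisomal genes were Acaa1b at 1.15, Hsd17b4 at 0.81, Eci2 at 0.75 and Acaa1a at 0.63. Acot2 was at 0.71, Ucp3 at 2.96 and Cyp4a14, which has few reads in WT HFD fat, at 6.02. Without WT ND mouse 2, far above the rest for Cyp4a14, that value was 4.235 (adjusted p = 0.0817) and was not called. It was also not called without ob/ob HFD mouse 2 (4.80, adjusted p = 0.0869) and without some other libraries. In liver there were 3 of 32, 2 higher and 1 lower, beside 2.2% and 3.96% of all tested genes, with Acot1 at 1.21, Eci2 at 0.52 and Vnn1 at -0.86. In both tissues 0 members were called for diet in ob/ob mice by themselves, and the WT ND mice enter every one of these values.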

How the results depend on the processing

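Of 171 differences of single genes that passed the test, none changed direction under the alternatives run: 170 still passed with DESeq2, 167 with DESeq2's size factors in edgeR, 150 without the filter on low counts and 160 with a replicate block (the mouse number as a term). In the fits that left out 1 library each, 90 of the 171 passed every time. The counts of members called moved by more than 1.5 times as follows, and the cause was not tested. With DESeq2 they were 13 for diet in WT aorta, 2 for diet in WT heart, 5 for the liver interaction and 2 for diet in WT muscle. Without the filter they were 13 for diet in WT aorta, 1 for the aorta interaction, 6 for genotype on HFD, 5 for diet in WT and 2 for the interaction in heart, 0 in hippocampus (genotype on HFD), and 2 in hypothalamus (genotype on ND). In liver the unfiltered counts were 11 for genotype on HFD, 2 for diet in ob/ob and 5 for the interaction, and in muscle 7 for genotype on ND and 2 for diet in WT. With the replicate block they were 2 for diet in WT heart, 0 for genotype on HFD in hippocampus and 0 for genotype on ND in hypothalamus. The mouse numbers were not shown to pair the samples: same-numbered libraries deviated together (correlation over 0.1) in 2 to 6 of 18 pairs per tissue.

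Leaving out 1 library gave these ranges of the counts. Aorta gave 7 to 16 for genotype on ND, 6 to 20 for genotype on HFD, 0 to 13 for diet in WT and 0 to 1 for the interaction. Epididymal fat gave 10 to 17 for genotype on ND and 1 to 25 for genotype on HFD. Heart gave 1 to 5 for genotype on ND, 1 to 5 for genotype on HFD and 0 to 1 for diet in WT. Hippocampus gave 0 to 1 for genotype on HFD. Hypothalamus gave 0 to 8 for genotype on ND and 0 to 2 for genotype on HFD. Liver gave 7 to 12 for diet in WT and 1 to 4 for the interaction. Skeletal muscle gave 5 to 13 for genotype on ND, 0 to 7 for genotype on HFD and 0 to 4 for diet in WT. For the log2 ratio of peroxisomal to mitochondrial sums, geometric means gave -0.18, -0.0887 and -0.26 in aorta (genotype on ND, genotype on HFD, diet in WT), -0.0857 and -0.19 in fat (genotype on ND, diet in WT), and -0.0875 in heart (diet in ob/ob). They gave 0.18, 0.27, -0.092 and -0.0038 in hypothalamus (both genotype, then both diet comparisons), and -0.13, -0.12 and -0.0268 in liver (genotype on ND, diet in WT, diet in ob/ob). With Eci2 counted as mitochondrial the ratio differed by -0.16 and -0.25 in heart (genotype on ND, diet in WT), -0.0204 and -0.0833 in hypothalamus (genotype on ND and HFD) and 1.63 in muscle (genotype on ND). Without both Acaa1 genes it differed by 0.0563 in hypothalamus and 0.16 in liver (genotype on HFD), and by -0.21 and -0.0621 in liver for diet in WT and ob/ob. No ratio moved by over 1 SD, the larger SD of the compared groups, when 1 library was left out. Leaving out 1 mouse cannot shift a group mean by over 1 SD of that group. This check could thus not fail, and it did not test how far the ratios rest on single libraries. Depth limits the low genes: Fgf21 in aorta, and Cyp4a14 and Ppara in WT HFD fat, rest on few reads per library.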
